A study of Rattus norvegicus with 6 samples.

Results

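Tinag, the gene of tubulointerstitial nephritis antigen, was examined together with its relative Tinagl1 and with 8 genes of laminin chains, nidogens and heparan sulfate proteoglycans (Lama5, Lamb1, Lamb2, Lamc1, Nid1, Nid2, Hspg2 and Agrn). All 10 genes were represented on the array, by 14 probe sets that carry 1 of these symbols alone, of 31042 probe sets that are not controls and 14218 genes named by a single symbol. Tinag was chosen by its measured strain difference on these arrays, so that difference is given as a description with no test. The other 9 genes were picked for their place in the basement membrane, with earlier results of these data known. The arrays measured whole-kidney RNA of male Dahl salt-sensitive rats (Dahl S), an inbred strain that becomes hypertensive on a high-salt diet, and of male Lewis rats. All 6 rats, 3 of each strain and each on an array of its own, ate food with 8% NaCl for 8 weeks from 5 weeks of age. Salt was common to both strains, so a strain difference can be one that is always there or one that salt brings out, and these arrays cannot tell them apart.

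The basement membrane is the thin sheet of matrix on which tubule cells, podocytes and endothelial cells of the kidney rest. Laminin trimers, each built of an alpha, a beta and a gamma chain, and type IV collagen form separate networks in it, and nidogens and the proteoglycans perlecan and agrin link the networks and bind growth factors. Tubulointerstitial nephritis antigen is a glycoprotein of the basement membrane of renal tubules, mainly proximal ones. It binds laminin and type IV collagen and is the target of antibodies in a form of tubulointerstitial nephritis.

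Sequences next to the start sites are shown first because the stretch of Tinag differed in base composition from those of the other members, a feature that the choice of genes did not use. RefSeq's promoter table of the GRCr8 assembly, which comes from a Brown Norway rat and from neither strain studied here, held 8 of the 10 genes. Lamb2 and Nid2 were not matched. Each stretch is the 250 bases before the start that the promoter table gives. That start is not always the outer end of the gene in RefSeq's gene table: the stretches of Tinagl1, Nid1 and Agrn lay wholly inside the gene, and those of Lamb1 and Hspg2 lay inside it by 247 and 28 bases. The members whose stretch lies outside the gene are printed, 5′ to 3′ on the gene's strand (minus for each), with CpG dinucleotides in capitals. They are Tinag at chr8:86765486-86765735, Lama5 at chr3:187695975-187696224 and Lamc1 at chr13:68051987-68052236.
Tinag: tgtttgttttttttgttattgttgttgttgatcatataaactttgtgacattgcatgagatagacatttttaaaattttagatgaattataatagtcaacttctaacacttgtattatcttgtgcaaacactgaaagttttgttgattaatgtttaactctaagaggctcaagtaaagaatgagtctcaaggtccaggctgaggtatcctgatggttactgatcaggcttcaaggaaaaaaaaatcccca
Lama5: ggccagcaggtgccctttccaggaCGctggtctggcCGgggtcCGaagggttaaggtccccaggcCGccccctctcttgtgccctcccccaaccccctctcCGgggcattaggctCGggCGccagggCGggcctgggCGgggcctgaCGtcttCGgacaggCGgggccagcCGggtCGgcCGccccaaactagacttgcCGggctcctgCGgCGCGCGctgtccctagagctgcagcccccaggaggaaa
Lamc1: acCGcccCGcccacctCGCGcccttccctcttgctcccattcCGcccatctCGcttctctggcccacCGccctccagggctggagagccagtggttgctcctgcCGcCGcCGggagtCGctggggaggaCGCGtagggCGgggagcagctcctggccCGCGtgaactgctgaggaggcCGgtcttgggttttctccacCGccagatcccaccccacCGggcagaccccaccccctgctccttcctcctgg

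The Tinag stretch held 31.6% G+C and 0 CpG dinucleotides. Among all 33469 promoters listed, 2.62% had a lower G+C content, and 7.83% had no CpG. The other stretches printed held 72.8% G+C with 20 CpG (Lama5) and 71.2% with 19 CpG (Lamc1). Over all 7 other members, those inside the gene included, the range was 59.6% (Tinagl1) to 72.8% (Lama5), with 7 CpG in Tinagl1 and 22 in Hspg2 as the lowest and highest counts. The median promoter had 51.2% G+C and 5 CpG. The letters TATAAA, searched on both strands, occurred in Tinag alone among the 8 members, 216 bases before the table's start, and in 12.9% of all promoters. GGGCGG, the core letters of a GC box, occurred in 5 members (Lama5, Lamb1, Lamc1, Nid1 and Hspg2) and in 30.5% of all promoters. CCAAT occurred in Nid1 alone and in 34.0% of all promoters. A match is a string of letters in the reference, and nothing about these stretches was measured on the arrays.

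**Figure D1:**
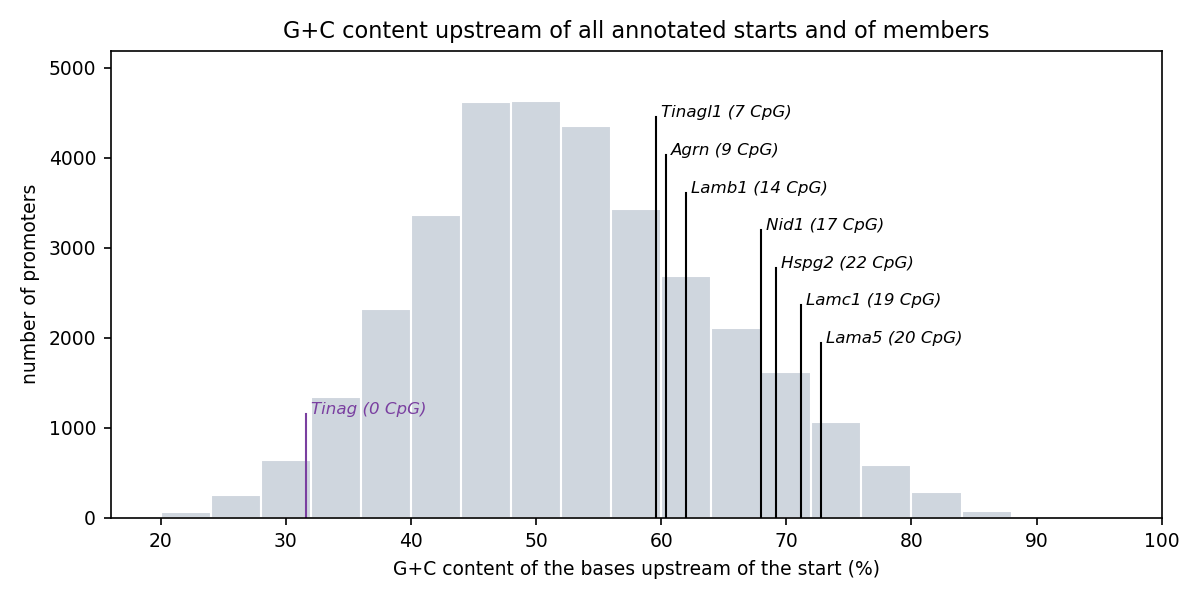
G+C content (percent, horizontal axis) of the 250 bases before the start in the promoter table, as the number of promoters in each bin (grey bars), with a line and the CpG count for each of the 8 matched members. Tinag stands at 31.6% with 0 CpG, left of the other 7, which lie between 59.6% and 72.8%.

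Signals are given as log2(signal + 16.2) after quantile normalization, which gives each array the same distribution, so each difference is relative to the typical probe set. Before normalization the 2% trimmed mean of an array ran from 119 (Lewis array 1) to 250 (Dahl S array 2). The arrays correlated at 0.980 to 0.988 within Lewis, 0.991 to 0.993 within Dahl S and 0.958 to 0.970 between strains, over 15778 tested probe sets (a description, since probe sets are no replicates). Of these 16.2% passed an adjusted p of 0.05 in limma (two-sided, Benjamini-Hochberg), 8.51% higher and 7.73% lower in Dahl S. With 1 probe set per gene 16.6% of 9535 genes passed, 9.04% higher and 7.59% lower. In the deposited signals without normalization the median probe set was 0.41 higher in Dahl S, and 93.4% of calls were higher, against 52.4% after normalization.

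Tinag was read at a high level in every Dahl S kidney and at a low level in every Lewis kidney. Its 1 probe set read 7.24, 7.64 and 7.63 in Lewis rats 1, 2 and 3 and 10.74, 10.71 and 10.78 in Dahl S rats 1, 2 and 3. No Lewis rat came near a Dahl S rat, and the Dahl S rats lay closer together (10.74 ± 0.03, SD, n = 3) than the Lewis rats (7.50 ± 0.23, SD, n = 3). The deposited signals were 82.5, 211 and 160 in Lewis and 1940, 2060 and 1810 in Dahl S. The low value of Lewis rat 1 came from the array with the lowest trimmed mean. Tinag was 9.44-fold higher in Dahl S (difference 3.24, SE 0.11), a value that chose the gene. It ranked 2 among the 15778 probe sets by the size of its rise, and 4 probe sets were at least 3 log2 units higher. With any 1 array left out the difference ran from 3.12 to 3.29. Tinag has no second probe set with its symbol on this array, so its difference rests on 1 set of probes. Probe sequences and strain variants were not used here, so how well each strain's RNA matches the Tinag probes was not tested.

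**Figure D2:**
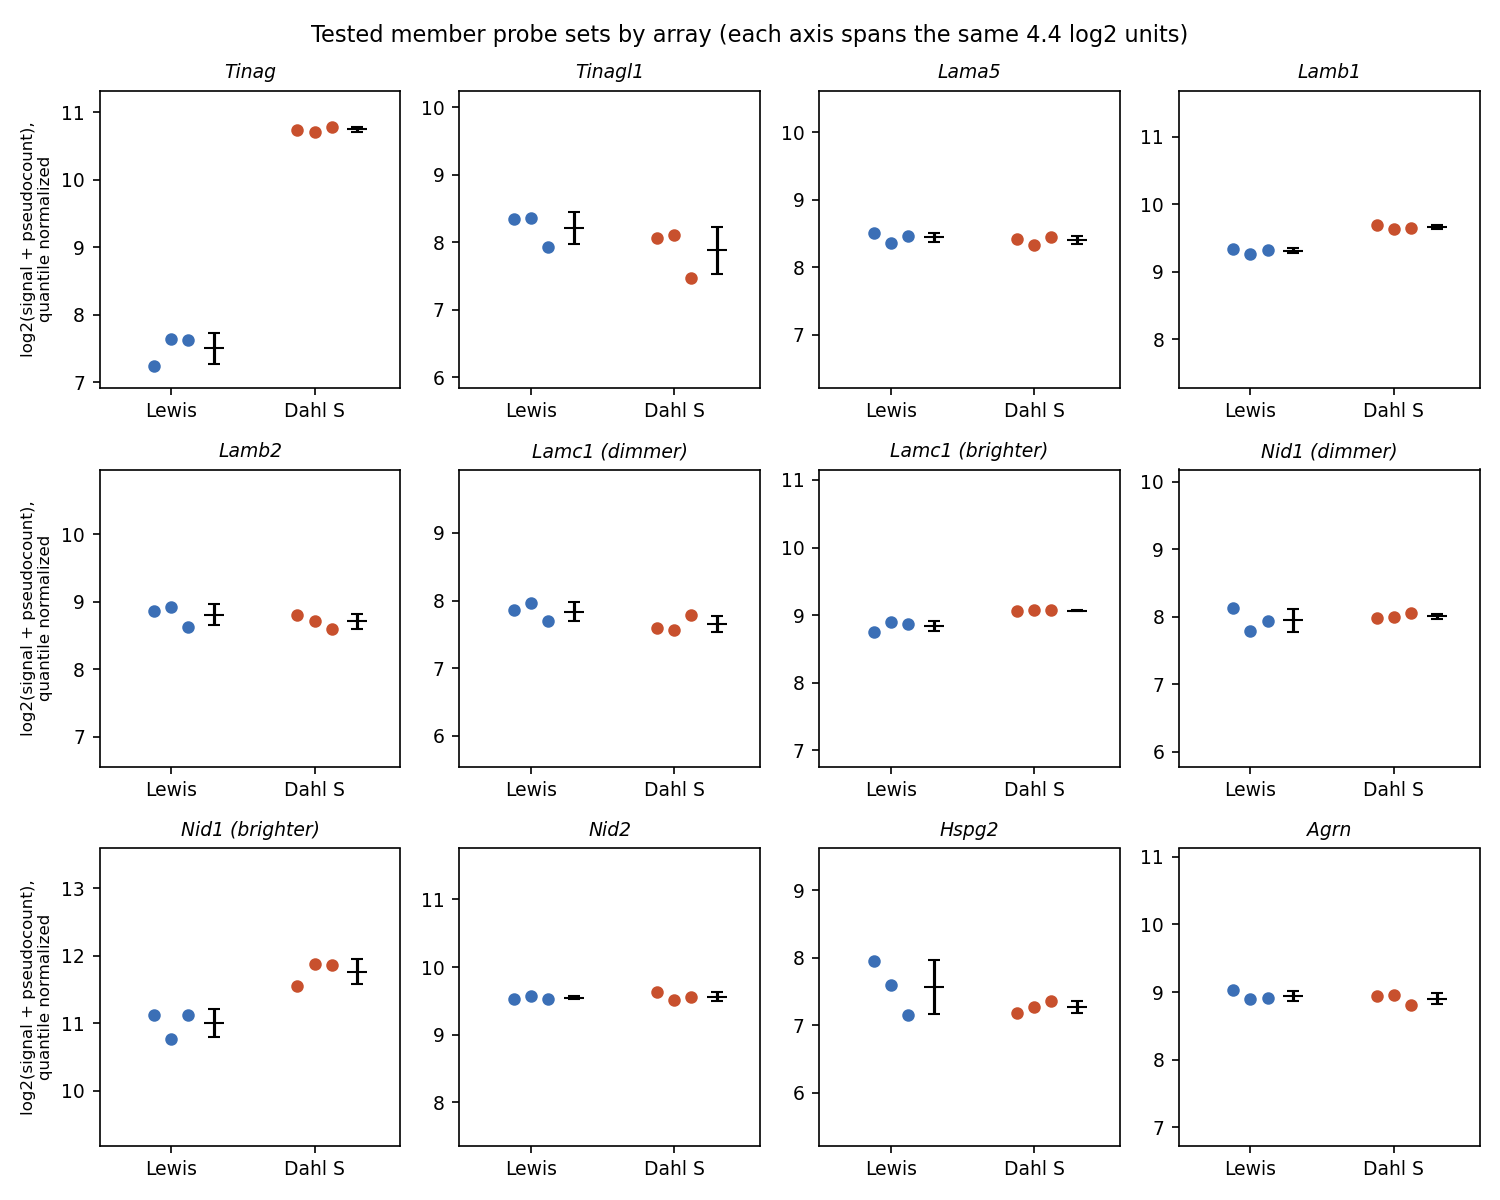
Normalized log2(signal + pseudocount) of the 12 tested member probe sets in each array (points, 3 Lewis in blue and 3 Dahl S in red), with the mean and SD of each strain beside them. Every vertical axis spans the same number of log2 units, and the strains stand far apart for Tinag (7.50 and 10.74), while those of Lama5, Nid2 and Agrn overlap.

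Tinagl1 encodes a secreted matrix protein related to tubulointerstitial nephritis antigen. It read 8.34, 8.36 and 7.93 in the Lewis rats and 8.06, 8.10 and 7.47 in the Dahl S rats. The strains overlapped, and replicate 3 was the lowest of each strain. The means were 8.21 ± 0.24 in Lewis and 7.88 ± 0.35 in Dahl S (SD, n = 3 each). The difference of -0.33 (SE 0.17) did not pass (limma adjusted p = 0.21), with a 95% interval of -0.69 to 0.03. It was -0.47 with Lewis array 3 left out and -0.13 with Dahl S array 3 left out, and it did not pass with any 1 array left out.

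Markers of proximal tubule cells, where Tinag is known to be made, were read beside it. In bulk kidney RNA, fewer cells of a type, less RNA per cell and a change of single marker genes cannot be told apart. Of 12 tested proximal tubule markers 0 were higher in Dahl S, 6 were lower (50%, beside 7.59% of all genes) and 6 did not pass. The median difference of the 12 markers was -0.16. Their summed normalized signal was 46000 to 49400 in Lewis and 40800 to 41500 in Dahl S. The genes that fell were those of the lactate transporter Slc5a12 (-0.84, SE 0.08, limma adjusted p = 2e-05), the dicarboxylate transporter Slc13a3 (-0.80, SE 0.12, limma adjusted p = 0.00077), the organic anion transporters Slc22a6 (-0.68, SE 0.09, limma adjusted p = 0.00019) and Slc22a8 (-0.29), the bicarbonate transporter Slc4a4 (-0.29) and the water channel Aqp1 (-0.17). Among the others Ggt1 differed by 0.02 (SE 0.07, limma adjusted p = 0.90) and the endocytic receptor gene Lrp2 by -0.07 (SE 0.05, limma adjusted p = 0.36). The phosphate transporter gene Slc34a1 differed by -0.06 (SE 0.06, limma adjusted p = 0.55), while its dimmer probe set fell by 0.62 on the log2 scale (SE 0.11, limma adjusted p = 0.0022). All of these markers passed the filter on low values. Adrenal cortex markers, which would show tissue taken along with the kidney, did not pass the filter in any of 5 annotated genes. Their summed signal was 70.2 to 101 in Lewis and 134 to 165 in Dahl S. The deposited signals of Cyp11a1 were 15.5, 38.8 and 4.5 in Lewis and 68.7, 87.5 and 55.4 in Dahl S, and those of Hsd3b1 were 22, 42 and 36.4 and then 58.4, 72.1 and 69.2. Both were higher in every Dahl S array. Star and Cyp11b1 were at or below 17.7 on every array, and Nr5a1 ran from 5.4 to 34.7 with overlapping strains. The part of adrenal RNA in the strain differences was not tested.

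Among the member laminin chains (Lama5, Lamb1, Lamb2 and Lamc1), Lamb1 rose in Dahl S and the others did not pass. Lamb1 encodes the beta 1 chain, which is found in tubular and embryonic basement membranes. It read 9.34, 9.27 and 9.32 in Lewis and 9.70, 9.64 and 9.65 in Dahl S. Every Dahl S rat lay above every Lewis rat, and the spread within a strain was small (9.31 ± 0.03 and 9.66 ± 0.03, SD, n = 3 each). The rise of 0.36 (SE 0.07, 1.28-fold, limma adjusted p = 0.0053) kept its call with any 1 array left out (0.34 to 0.37). Without normalization between arrays it lost the call (0.79, limma adjusted p = 0.18).

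Lamb2 encodes the beta 2 chain, which the glomerular basement membrane needs in the mature kidney. It read 8.87, 8.93 and 8.63 in Lewis and 8.81, 8.72 and 8.60 in Dahl S, with overlapping strains. Its difference was -0.10 (SE 0.10, limma adjusted p = 0.56), with a 95% interval of -0.32 to 0.12. Lamb1 and Lamb2 encode alternative partners in the laminin trimer, and their intervals of 0.20 to 0.52 and -0.32 to 0.12 did not overlap, though the difference between these probe sets was not itself tested.

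Lama5 encodes the alpha 5 chain, the main alpha chain of adult kidney basement membranes. Its 1 tested probe set read 8.50, 8.36 and 8.46 in Lewis and 8.41, 8.33 and 8.45 in Dahl S. The strains overlapped, and the difference was -0.05 (SE 0.09, limma adjusted p = 0.78), with a 95% interval of -0.24 to 0.14. The other 2 Lama5 probe sets were too dim to be tested, with deposited signals of 0.6 to 8.7 and 7.7 to 17.5 over the arrays.

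Lamc1 encodes the gamma 1 chain, shared by most kidney laminins, and its 2 probe sets did not give the same picture. The brighter one read 8.75, 8.90 and 8.86 in Lewis and 9.06, 9.07 and 9.07 in Dahl S. Its strains did not overlap, yet the difference of 0.23 (SE 0.08) missed the threshold (limma adjusted p = 0.077). The dimmer one read 7.86, 7.96 and 7.69 in Lewis and 7.60, 7.57 and 7.79 in Dahl S, a difference of -0.18 (SE 0.11, limma adjusted p = 0.29). Within each array the brighter exceeded the dimmer by 1.00 ± 0.15 in Lewis and 1.42 ± 0.11 in Dahl S (SD, n = 3 each). Every Dahl S array gave a wider gap than every Lewis array (exact permutation p = 0.1, two-sided, the smallest that 3 against 3 can give, and 0.1 adjusted over 4 such pairs).

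Nid1 encodes nidogen 1, the link between laminin and type IV collagen, and had the largest rise among the 9 genes other than Tinag, at 1 of its 2 probe sets. The brighter probe set read 11.12, 10.77 and 11.12 in Lewis and 11.55, 11.88 and 11.86 in Dahl S. All Dahl S rats lay above all Lewis rats. The rise was 0.76 (SE 0.11, 1.69-fold, limma adjusted p = 0.00037), and 0.64 to 0.87 with any 1 array left out. The dimmer probe set read 8.13, 7.79 and 7.93 in Lewis and 7.98, 7.99 and 8.05 in Dahl S. There the strains overlapped and the difference was 0.06 (SE 0.10, limma adjusted p = 0.77), with a 95% interval of -0.17 to 0.29 that does not reach the rise of the other probe set. The gap between both probe sets within an array was 3.05 ± 0.12 in Lewis and 3.76 ± 0.17 in Dahl S (SD, n = 3 each), with a two-sided exact permutation p of 0.1, also after adjustment over the 4 pairs. A rise of Nid1 RNA therefore rests on 1 probe set of 2.

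Nid2 encodes nidogen 2, which can stand in for nidogen 1. It read 9.53, 9.57 and 9.53 in Lewis and 9.63, 9.51 and 9.55 in Dahl S. The strains overlapped. Its difference was 0.02 (SE 0.07, limma adjusted p = 0.87), and the 95% interval of -0.14 to 0.18 excludes a rise as large as the 0.36 of Lamb1.

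Perlecan and agrin are the heparan sulfate proteoglycans among these genes. Hspg2, the perlecan gene, read 7.96, 7.60 and 7.15 in Lewis and 7.19, 7.28 and 7.36 in Dahl S. The Lewis rats were spread over 0.41 (SD) against 0.08 in Dahl S, and the Dahl S rats lay inside the Lewis range. The difference of -0.29 (SE 0.17, limma adjusted p = 0.27) had a 95% interval of -0.66 to 0.08. It rested on the Lewis rats: without Lewis array 3, the lowest, it was -0.50 and passed (limma adjusted p = 0.026), and over all single arrays left out it ran from -0.50 to -0.10. Agrn, the agrin gene, whose protein is abundant in the glomerular basement membrane, read 9.03, 8.90 and 8.91 in Lewis and 8.94, 8.95 and 8.81 in Dahl S. Its strains overlapped, with a difference of -0.04 (SE 0.08, limma adjusted p = 0.78) and a 95% interval of -0.22 to 0.14.

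Set side by side, the difference of 3.24 for Tinag stood beside differences of -0.33 to 0.76 for the 11 tested probe sets of the other 9 genes. Of these genes 2 rose (Nid1 and Lamb1), 0 fell and 7 did not pass in limma with 1 probe set per gene, against 9.04% of all genes higher and 7.59% lower. The strains did not overlap in 3 of the 9 genes (Lamb1, Lamc1 and Nid1), against 35.1% of all genes and 34.5% of all probe sets tested. The median difference was -0.04 for the 9 genes and 0.00 for all genes tested. The 9 genes were chosen with earlier results of these data known, so these counts are a description. Of all tested probe sets 84.1% differed by less than the 0.36 of Lamb1. The values of Lama5, Lamb2 and Agrn changed sign when arrays were scaled to a common median (0.05, 0.01 and 0.06), so no direction is given for them.

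**Figure D3:**
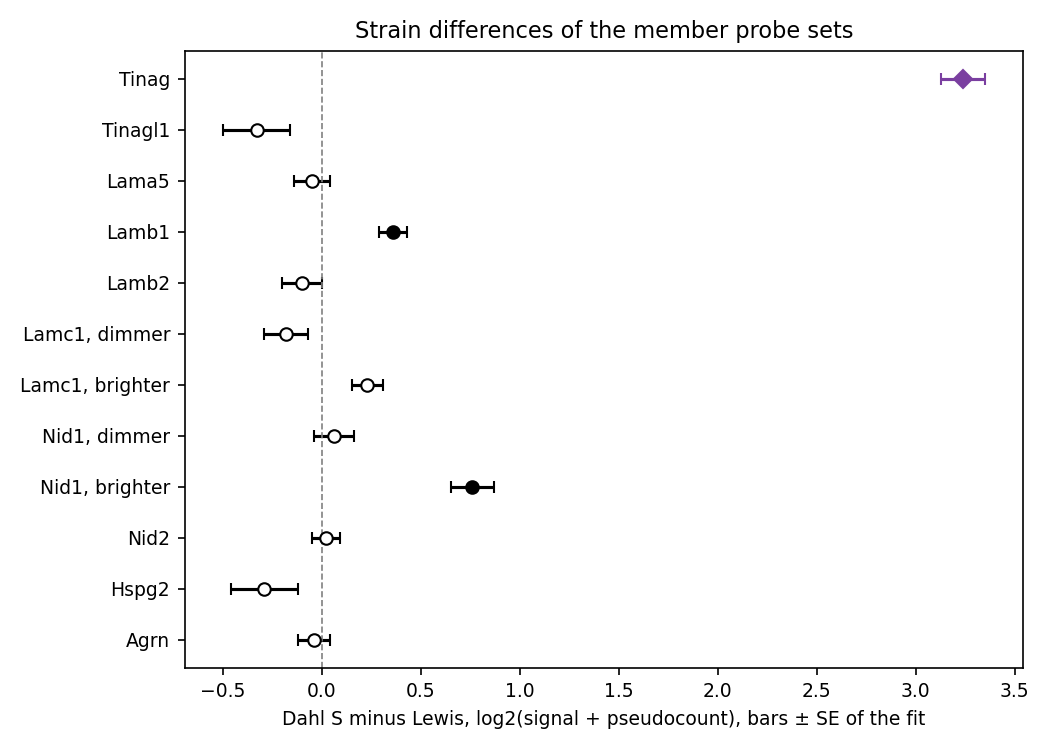
Dahl S minus Lewis on the log2(signal + pseudocount) scale (horizontal axis) for each tested member probe set, with bars of the SE of the limma fit. Filled circles passed an adjusted p of 0.05 and open circles did not, and the diamond is Tinag, which was not tested. Tinag stands at 3.24, and the other probe sets lie between -0.33 and 0.76.

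Other genes of the basement membrane, its receptors and its turnover were read from lists chosen for their function. Of 69 such genes 47 were tested, of which 10 rose, 1 fell and 36 did not pass, with a median difference of 0.11. The share that rose was 21.3%, beside 9.04% over all genes, and the share that fell was 2.13%, beside 7.59%. The lists were drawn up with earlier results of these data known, so the counts are a description.

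The other laminin chains and the basement membrane collagens each had 1 gene of 6 that rose (16.7%, beside 9.04% of all genes) and 0 that fell. Lama4, the alpha 4 chain of vessel walls, read 6.20, 6.52 and 6.30 in Lewis and 7.19, 6.94 and 7.01 in Dahl S, a rise of 0.71 (SE 0.13, limma adjusted p = 0.0032) with no overlap of the strains. Lamb3, by contrast, differed by 0.04 (SE 0.13, limma adjusted p = 0.87). Col15a1, a collagen of the basement membrane zone of vessels and muscle, rose by 0.66 (SE 0.11, limma adjusted p = 0.0016), and its other probe set by 0.48 (SE 0.15, limma adjusted p = 0.048). The type IV collagen gene Col4a5 differed by 0.01 (SE 0.07, limma adjusted p = 0.94). For Col4a1, named after its values were seen, the brighter probe set differed by 0.04 (limma adjusted p = 0.84) and the other by 0.27 (limma adjusted p = 0.040). Without Lewis array 1 the brighter Col4a1 probe set passed too (0.20, limma adjusted p = 0.040), which made 2 collagen genes higher.

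Among 7 other tested basement membrane proteins 1 rose (Pxdn) and 1 fell (Sparc). Each is 14.3% of the list, beside 9.04% of all genes higher and 7.59% lower. Both counts changed when an array of 1 strain was left out, whichever array of that strain it was. Without any 1 Dahl S array 0 rose, and without any 1 Lewis array 0 fell, since the other Sparc probe set was then the brighter and stood for the gene. Pxdn, peroxidasin, which crosslinks type IV collagen, rose by 0.50 (SE 0.13, limma adjusted p = 0.019), and its other probe set by 0.93 (SE 0.11, limma adjusted p = 8.1e-05). The call of the first was lost without any 1 of the 3 Dahl S arrays (0.45 to 0.52, limma adjusted p 0.053 to 0.087). Sparc, a collagen-binding matrix protein, fell by 0.68 on the log2 scale (SE 0.10, limma adjusted p = 0.00064) at 1 probe set, which read 10.64, 10.31 and 10.22 in Lewis and 9.78, 9.71 and 9.65 in Dahl S. That probe set kept its call without any 1 array (-0.76 to -0.55) and lost it without normalization between arrays (-0.28, limma adjusted p = 0.53). The other probe set, of nearly the same brightness, read 10.11, 9.92 and 9.98 in Lewis and 10.04, 10.07 and 10.17 in Dahl S, a difference of 0.09 (SE 0.08, limma adjusted p = 0.47). The gap between both was 0.39 ± 0.14 in Lewis and -0.38 ± 0.13 in Dahl S (SD, n = 3 each), with a two-sided exact permutation p of 0.1. Smoc2 differed by 0.02 (SE 0.08, limma adjusted p = 0.89).

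Of 16 tested receptor genes 2 rose (12.5%, near the 9.04% over all genes) and 0 fell (beside 7.59%). Those that rose encode the chains of the same integrin. Itga1, the collagen-binding alpha 1 chain, read 8.34, 8.12 and 8.39 in Lewis and 8.88, 8.97 and 9.05 in Dahl S, a rise of 0.68 (SE 0.10, limma adjusted p = 0.00044). Its partner chain Itgb1 rose by 0.41 (SE 0.08, limma adjusted p = 0.0037), and by 0.28 (limma adjusted p = 0.038) at its other probe set. Without Lewis array 3 the count of higher genes was 4, with Itga6 (0.26, limma adjusted p = 0.036) and Itga8 (0.60, limma adjusted p = 0.037) added. With all arrays the brighter Itgb5 probe set did not pass (-0.27, limma adjusted p = 0.098), while the dimmer was lower (-0.35, limma adjusted p = 0.045). Without Lewis array 1 the brighter was lower too (-0.33, limma adjusted p = 0.039). With scaling to a common median Itgb1 kept its value and lost its call (0.41, limma adjusted p = 0.057). The collagen receptor kinase gene Ddr1 differed by 0.03 (SE 0.09, limma adjusted p = 0.88).

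Genes of matrix turnover had the highest share of calls among these lists. With the brightest probe set of each gene, 5 of 12 were higher (41.7%, beside 9.04% of all genes) and 0 lower. The median difference of the list was 0.32. Adamts1, a secreted protease that cuts proteoglycans, read 7.88, 7.79 and 7.92 in Lewis and 9.46, 9.58 and 9.69 in Dahl S, a 3.27-fold rise (1.71, SE 0.09, limma adjusted p = 1.3e-07). Timp1, a metalloproteinase inhibitor, rose 2.67-fold (1.42, SE 0.10, limma adjusted p = 1.6e-06). The membrane-bound metalloproteinase gene Mmp14 rose by 0.61 (SE 0.09, limma adjusted p = 0.00062). The lysosomal protease gene Ctsl, named after its value was seen, rose by 0.28 (SE 0.05, limma adjusted p = 0.0013) and by 0.68 at its other probe set. With scaling to a common median Ctsl lost its call (0.12, limma adjusted p = 0.41). Timp3, a matrix-bound metalloproteinase inhibitor gene, differed by -0.36 (SE 0.12, limma adjusted p = 0.054) at its brightest probe set. That probe set was called lower without any 1 Lewis array (-0.45 to -0.18, limma adjusted p 0.032 to 0.047), so that 1 gene of the list then fell. The other Timp3 probe sets differed by -0.46 (limma adjusted p = 0.0069), -0.34 (limma adjusted p = 0.012) and 0.00 with all arrays. Plau, the urokinase gene, differed by -0.02 (SE 0.06, limma adjusted p = 0.87).

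Mmp24, another membrane-type metalloproteinase gene, gave opposite calls at its 2 probe sets. The brighter read 9.19, 9.19 and 9.05 in Lewis and 9.93, 9.85 and 9.88 in Dahl S, a rise of 0.75 (SE 0.08, limma adjusted p = 3.8e-05). The dimmer read 8.57, 8.65 and 8.45 in Lewis and 8.01, 8.19 and 8.38 in Dahl S, and fell by 0.36 on the log2 scale (SE 0.11, limma adjusted p = 0.040). The gap between them was 0.59 ± 0.04 in Lewis and 1.69 ± 0.21 in Dahl S (SD, n = 3 each), with a two-sided exact permutation p of 0.1. Over the members and these lists 20 genes had more than 1 tested probe set. Of these 4 (Itgb1, Ctsl, Pxdn and Col15a1) were called in the same direction by each probe set, 10 by none, 5 (Nid1, Sparc, Timp3, Itgb5 and Col4a1) by some and not others, and Mmp24 in both directions. The direction of Mmp24 and the calls of those 5 genes thus depend on which probe set stands for the gene. The Sparc and Mmp24 pairs were picked after their values were seen, and probe sequences were not used here.

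**Figure D4:**
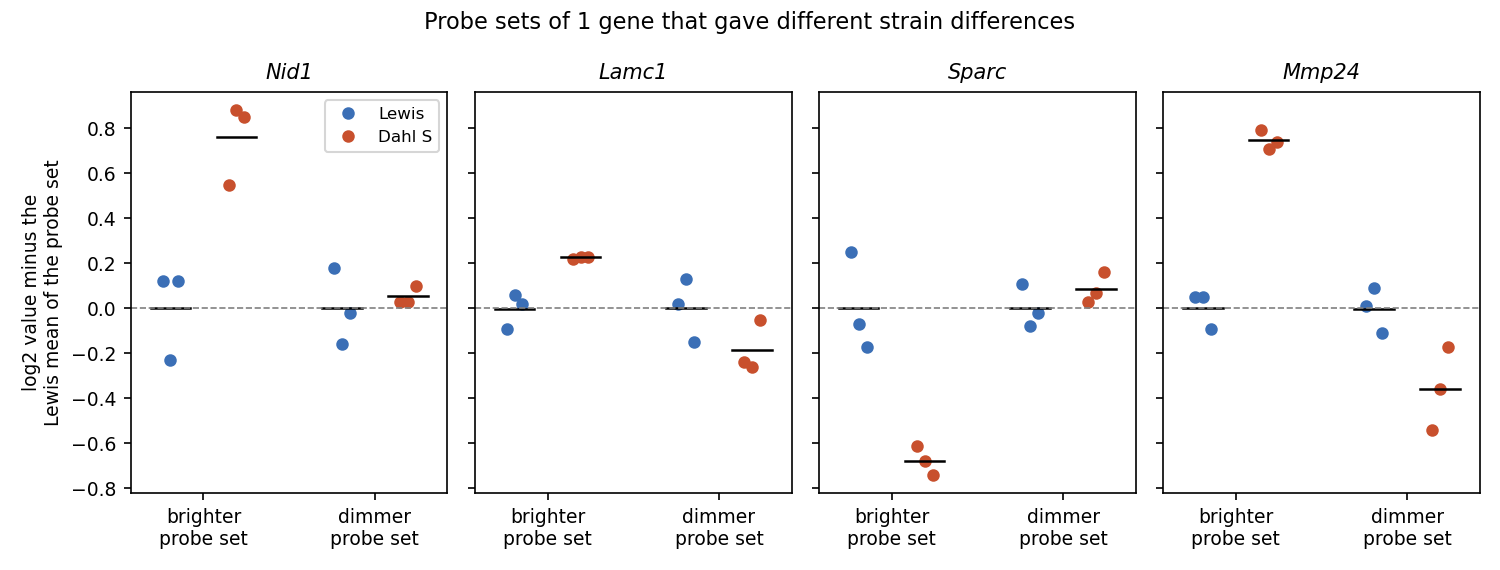
Log2 value of each array minus the Lewis mean of the same probe set (vertical axis) for both tested probe sets of Nid1, Lamc1, Sparc and Mmp24, with 3 Lewis (blue) and 3 Dahl S (red) arrays and a line at each mean. In Nid1 the Dahl S arrays stand 0.76 above Lewis at the brighter probe set and 0.06 at the dimmer, and in Mmp24 the probe sets point in opposite directions.

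**Figure D5:**
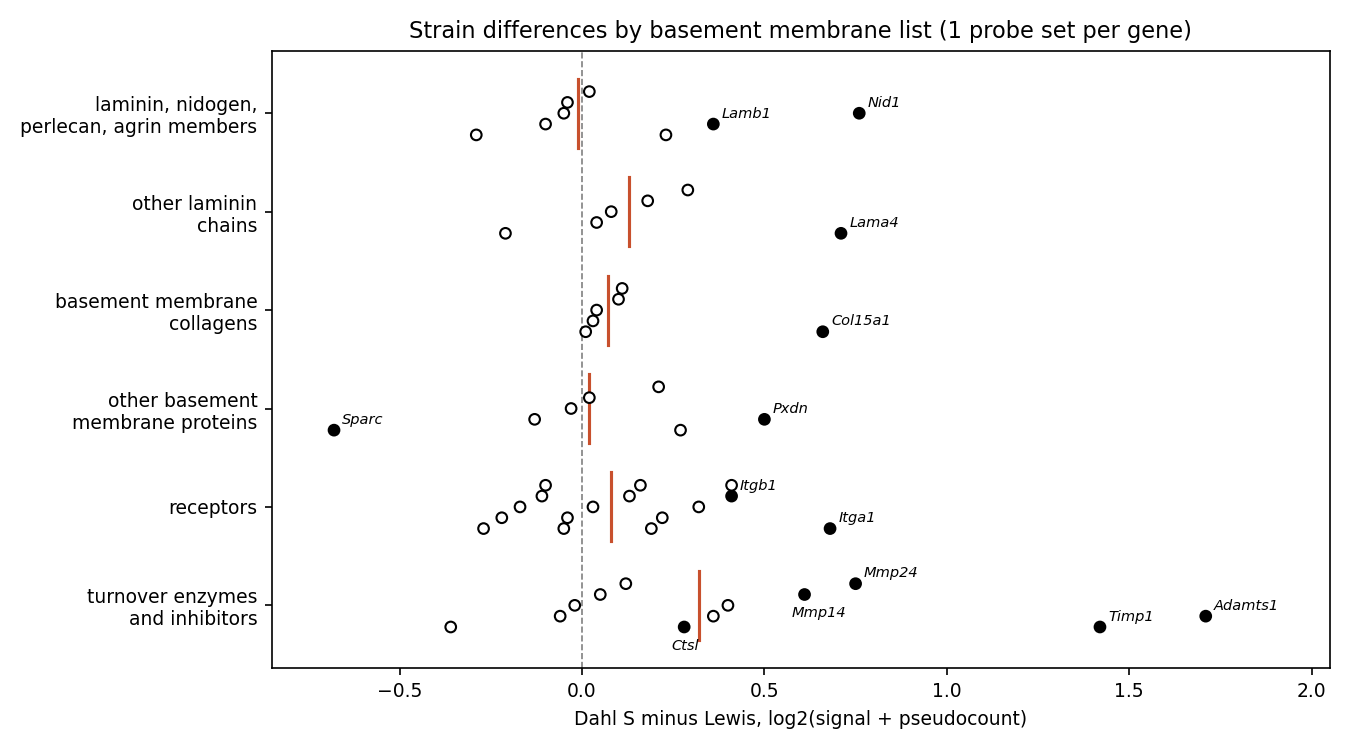
Dahl S minus Lewis on the log2(signal + pseudocount) scale (horizontal axis) for each tested gene of 6 basement membrane lists, 1 probe set per gene. Filled points passed an adjusted p of 0.05 in limma, open points did not, and the red line is the median of the list. The turnover list has its median at 0.32 and the others lie between -0.01 and 0.13.

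Markers of other cell types differed by list, with more higher than lower in some lists and the reverse in others. The counts stand beside 9.04% of all genes called higher and 7.59% called lower. Of 9 tested fibroblast and pericyte markers 7 were higher in Dahl S and 0 lower. The summed signal of the 9 was 4930 to 5690 in Lewis and 8080 to 8180 in Dahl S. Of 7 leukocyte markers 6 were higher and 0 lower (summed signal 744 to 823 in Lewis and 1300 to 1380 in Dahl S), and of 9 tubular injury markers, which include Timp1, 7 were higher (6860 to 7850 and 14000 to 14200). The leukocyte marker Itgal read 4.65, 5.31 and 5.53 in Lewis and 7.32, 7.36 and 7.18 in Dahl S. The fibroblast marker Lum read 6.19, 5.85 and 5.93 and then 6.55, 6.57 and 6.59. Both passed the filter on low values through the Dahl S arrays alone, so their place among the higher markers was favoured in advance. Smooth muscle markers had 2 of 5 higher (1090 to 1430 and 1590 to 1670), and erythrocyte markers 3 of 4 higher (4420 to 5450 and 6130 to 6560). Slc4a1 (difference 0.03) is counted among both the erythrocyte and the collecting duct markers. Endothelial markers had 1 of 8 higher and 2 lower (3390 to 3700 and 3070 to 3280), and podocyte markers 0 of 6 higher and 3 lower (3590 to 3630 and 3210 to 3320). Loop of Henle and distal tubule markers had 1 of 6 higher and 1 lower (21200 to 22300 and 20600 to 21300), and collecting duct markers 0 of 9 higher and 2 lower (8110 to 8880 and 7330 to 7400). Each sum takes in every annotated marker of its list, also those that did not pass the filter. It thus covers 9 leukocyte, 7 smooth muscle, 5 erythrocyte and 7 loop of Henle and distal tubule markers, more than were tested. The part of these cell types in the differences of Tinag, Lamb1, Nid1 and the other genes was not tested.

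Across the 6 arrays the genes whose values followed Tinag most closely were Ccl2 (Pearson r 0.999), Olfml1 (0.999), Slpi (0.999), RT1-CE16 (0.999) and Axl (0.999). Their values split by strain as those of Tinag do, so such a correlation is mainly the strain difference, and 56 of 9489 other genes reached 0.99. The chemokine gene Ccl2 read 7.08, 7.17 and 7.17 in Lewis and 7.93, 7.98 and 7.98 in Dahl S, while Olfml1, a gene of an extracellular olfactomedin-like protein, read 7.49, 7.67 and 7.65 and then 10.25, 10.18 and 10.35. Among the members the correlation with Tinag was 0.98 for Lamb1, 0.96 for the brighter Lamc1 probe set and 0.91 for the brighter Nid1 probe set. It was 0.32 for Nid2 and between -0.58 and -0.39 for Agrn, Lama5, Lamb2, Tinagl1 and Hspg2.

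In the GRCr8 assembly Tinag spans chr8:86680441-86765485, and its nearest tested neighbours gave no such difference. Lrrc1, a scaffold protein gene 355 kb away on the side of higher coordinates, read 7.92, 7.52 and 7.72 in Lewis and 7.92, 7.78 and 7.72 in Dahl S (difference 0.09, SE 0.12, limma adjusted p = 0.68), and its dimmer probe set differed by -0.08 (SE 0.12, limma adjusted p = 0.70). Lysmd2, 1406 kb away on the other side, read 7.10, 7.06 and 6.87 in Lewis and 7.02, 6.91 and 6.93 in Dahl S (difference -0.05, SE 0.11, limma adjusted p = 0.80). Of 7 protein-coding genes that lie between these and Tinag, 4 had a probe set with their symbol alone (Scg3, Bmp5, Hcrtr2 and Mlip) and none of these passed the filter on low values. Of the other members only Lamb2 lies on the same chromosome (chr8:118056899-118069090).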

How the data were processed

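Whole-kidney RNA of 6 rats was hybridized to 1 array each. The authors deposited 1 linear signal intensity per probe set and array, computed with GeneChip Operating Software version 1.4 per the labels. Of the scaling target, detection calls and background settings, nothing is stated here. From these intensities log2(signal + 16.2) was taken, the pseudocount being the lower quartile of all values, and arrays were quantile normalized. Folds are on this scale and are too small for dim probe sets. A probe set was tested if 3 or more of the 6 arrays read above the overall median (15778 probe sets; 57 control probe sets left out). Strains were compared with limma 3.58.1 in R 4.3.3 (lmFit; trended eBayes; two-sided), and p-values were Benjamini-Hochberg adjusted over all tested probe sets and a threshold of 0.05. Intervals and SEs are from that fit. The probe set with the highest mean stood for a gene in counts by gene. The number of arrays limits the precision, and an exact permutation test of 3 against 3 cannot go below p = 0.1.

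Names came from GEO's platform annotation, of whose 21268 probe sets 20764 matched RefSeq's GRCr8 gene table. Of probe sets that are not controls 20826 had 1 symbol, 436 several and 9780 none. On simulated data (15645 probe sets tested) the fit found 34.3% of the 0.5 log2 shifts, 92.1% of the 1 log2 shifts and 100% of the 2 log2 shifts. Of its 151 calls 5 were false. Only 67, 63 and 65 tested probe sets were shifted by these sizes, against 2562 called in the data. The adjusted threshold was therefore stricter in the simulation, so these shares are not the power of the strain comparison. The labels number rats within each strain only. Same-numbered rats did not deviate together (r = -0.05, -0.10 and 0.11 for numbers 1, 2 and 3), so the main fit has no replicate block.

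The members and gene lists were chosen with earlier results of these data known. Named were all members, from each basement membrane list the genes past the threshold (at most 4 in each direction) and the gene with the smallest difference, the 5 genes most correlated with Tinag, and its nearest tested neighbours. The cell type markers named, and genes named because leaving out an array changed their call, were picked after their values were seen. Alternatives tried were the normalization, pseudocount, filter, variance trend, replicate block, the probe set that stands for a gene, and each array left out.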

Additional observations from a re-analysis of the deposited data

How the results depend on the processing

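Without normalization between arrays 666 probe sets were higher and 47 lower, and 1 of the 9 member genes and 6 of the other basement membrane genes were higher and 0 of the latter lower. The differences there were 3.62 for Tinag, 0.09 for Tinagl1, 0.35 for Lamb2, 0.40 for Agrn, 0.23 for the dimmer Lamc1 probe set, 0.13 for Hspg2 and 0.39 for Lama5, the last 6 of opposite sign to the main values and none past the threshold. With arrays scaled to a common median 704 probe sets were lower, Lamb2, Agrn and Lama5 differed by 0.01, 0.06 and 0.05, and 2 other basement membrane genes were lower. A pseudocount of 64 gave 2.93 for Tinag and one of 1 gave 3.36. The stricter filter, which tests fewer probe sets, left 753 higher and 724 lower. When each gene was its probe sets' mean, 3 other basement membrane genes were lower. With any 1 array left out the counts ran from 764 to 1446 higher and from 726 to 1340 lower. Among members 2 were higher and 0 to 1 lower (Hspg2, without Lewis array 3), and among other basement membrane genes 9 to 12 were higher and 1 to 2 lower. Tinag ran from 3.12 to 3.29. Signs changed within these ranges for Agrn (-0.07 to 0.00, turned without Dahl S array 3), the dimmer Nid1 probe set (-0.02 to 0.15, turned without Lewis array 2) and Nid2 (-0.01 to 0.05, turned without Dahl S array 1). The numbers of the rats do not pair them by the check above, and with the replicate block 1290 probe sets were higher and 1195 lower, 1 member gene was lower (Tinagl1, -0.33, limma adjusted p = 0.049) and 2 other basement membrane genes were lower. The causes of these changes were not tested. No alternative turned the direction of Tinag, Lamb1 or the brighter Nid1 probe set. No probe set's signal over background is given, so dim probe sets are limited only by the filter.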
